A study of Mus musculus with 6 samples.

Results

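The 10 genes described here encode subunits of AP-1, a family of paired transcription factors. They were taken by gene name from the deposited table of 20665 genes: Fos, Fosb, Fosl1 and Fosl2 of the FOS family, Jun, Junb and Jund of the JUN family, and Atf3, Maff and Mafk. Each carries 1 gene identifier in the table. They lie on chromosomes 12 (Fos), 7 (Fosb), 19 (Fosl1), 5 (Fosl2 and Mafk), 4 (Jun), 8 (Junb and Jund), 1 (Atf3) and 15 (Maff). All 10 had enough signal to be tested, that is 10 or more normalized counts in 3 or more libraries, as did 16141 genes in all. A normalized count is a gene's read count divided by 1 size factor per library, so it corrects for sequencing depth but not for gene length.

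Total RNA was sequenced from fibroblasts grown from the gingiva (gum) of wild-type C57BL/6 mice as primary cells. An Er:YAG laser, an infrared dental laser, had delivered 3.9 J/cm2 from 25 cm to the 35-mm dishes behind the 3 irradiated libraries, and the 3 non-irradiated libraries had no such exposure. Both groups are labelled 3 h and grew in medium with 10% fetal bovine serum, and the series title places the origin of the cells in the maxilla. The comparison asks how laser light affects gingival fibroblasts early on. Whether the libraries of a group stem from different mice or dishes is not stated. The main test paired same-numbered libraries, so its p-values reflect how far the differences within pairs disagree, for the gene and over all tested genes. That spread may be technical.

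AP-1 proteins bind DNA as dimers held together by a leucine zipper. FOS proteins need a JUN partner, whereas JUN proteins can also pair among themselves. The dimers read a sequence known as the TRE, which was searched here in the loose form TGANTCA, with N any base. Most of these genes are immediate early genes: growth factors, serum, cytokines and stress switch them on through MAP kinases without new protein synthesis, and their mRNAs are short-lived. In fibroblasts AP-1 is known for driving matrix metalloproteinases, urokinase and cytokines. FOSL1 and FOSL2 accumulate later than FOS and lack its strong activation domain. ATF3 is a stress-induced member that often represses, and the small MAF proteins MAFF and MAFK have no activation domain of their own and also pair with NRF2 and BACH1.

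The promoters of 5 members are shown as examples of windows that hold the sequence TGACG, and were picked with the matches known. Fosb, Fos, Junb and Maff were higher in irradiated cells in every pair of libraries and Atf3 was lower in every pair, as described further on. Of the other members higher in every pair, Mafk also has TGACG in its window, and Jun and Fosl2 do not. RefSeq windows on build GRCm38.p6 matched 9 of the 10 members, with 11 windows, Maff having several start sites; there was no match for Fosl1. The stretches are the 150 bases before the annotated start, 5′ to 3′ on the gene's strand. Capitals mark TGACG in either orientation (the core of the cAMP response element, CRE), the full CRE TGACGTCA, which contains that core on both strands, and TATAAA, the TATA box.
Fosb, chr7:19310046-19310195, minus strand: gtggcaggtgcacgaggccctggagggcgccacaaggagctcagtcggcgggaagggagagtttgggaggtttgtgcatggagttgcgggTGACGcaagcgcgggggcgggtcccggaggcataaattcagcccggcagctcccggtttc
Fos, chr12:85473740-85473889, plus strand: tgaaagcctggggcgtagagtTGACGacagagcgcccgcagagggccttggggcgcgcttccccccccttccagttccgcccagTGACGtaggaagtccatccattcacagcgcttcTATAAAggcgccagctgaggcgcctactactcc
Junb, chr8:84978749-84978898, minus strand: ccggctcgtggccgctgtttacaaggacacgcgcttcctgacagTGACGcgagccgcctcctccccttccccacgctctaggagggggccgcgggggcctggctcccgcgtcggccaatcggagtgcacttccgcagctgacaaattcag
Maff, chr15:79347370-79347519, plus strand: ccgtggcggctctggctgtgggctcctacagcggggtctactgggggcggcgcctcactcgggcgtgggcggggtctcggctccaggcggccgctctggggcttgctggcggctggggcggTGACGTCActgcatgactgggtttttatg
Atf3, chr1:191183334-191183483, minus strand: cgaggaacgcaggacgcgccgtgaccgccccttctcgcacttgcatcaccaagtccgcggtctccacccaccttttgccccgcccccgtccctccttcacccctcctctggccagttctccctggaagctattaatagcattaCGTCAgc
Over the 250 bases before the start, TGACG in either orientation stood in windows of 6 of the 9 matched members (Fos, Fosb, Junb, Atf3, Maff and Mafk), and in 17.8% of all 32851 windows in the table. The full CRE stood in 1 member, Maff, 29 to 22 bases before the start, against 1.55% of all windows. TATAAA, searched on the gene's strand, was found in Fos, and in 7.59% of all windows. No member's window held TGANTCA, which 6.75% of all windows held, or a CArG box, the site of serum response factor, which 1.47% held, both searched on both strands. Bases beyond these 250 were not searched, so an absence holds for that stretch only. These matches describe letters in a window and were not tied to binding or to the measured levels.

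The 6 libraries held 45178137 to 59904715 gene-assigned reads. All 12 fibroblast markers were listed, with a summed level of 2020908 to 2805134 normalized counts in irradiated and 1834599 to 2973664 in non-irradiated libraries. Of 8 epithelial markers 3 were listed (sum 550 to 1586 and 590 to 1263, nearly all from Cldn1). Endothelial markers summed to 213 to 605 in irradiated and 160 to 617 in non-irradiated libraries, leukocyte markers to 233 to 388 and 241 to 291, and Schwann cell markers to 846 to 1389 and 971 to 1623. Pericyte and muscle markers reached 30980 to 60522 and 29759 to 55435, mostly Cnn1 and Cspg4. Fewer cells of a type and less RNA per cell cannot be told apart in such bulk libraries.

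Most AP-1 subunit genes stood higher in irradiated than in non-irradiated cells at 3 h, by small amounts, and none of the differences passed the test over all genes. Fosb was 1.91-fold to 1.99-fold higher in the pairs of same-numbered libraries. Fos, Fosl2, Junb, Maff and Mafk were 1.11-fold to 1.43-fold higher in each pair, and Jun was 1.01-fold to 1.26-fold higher. Jund, the constitutive JUN, did not move in a consistent direction, and Atf3 stood slightly lower in every pair.

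**Figure D1:**
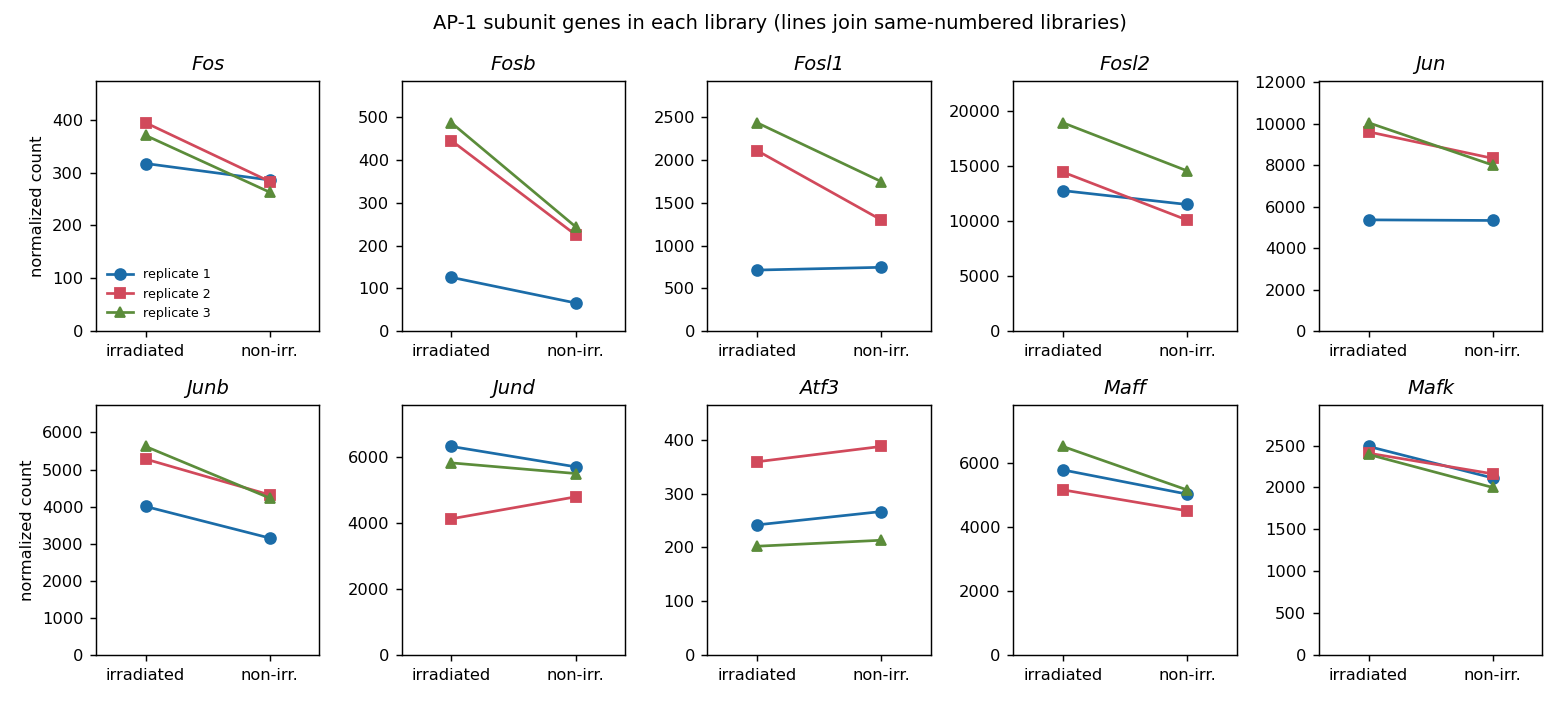
Normalized counts of the 10 AP-1 subunit genes (y axis, starting at 0) in irradiated libraries at the left and non-irradiated libraries at the right of each panel, with lines joining same-numbered libraries. All 3 lines slope down towards the non-irradiated side for Fos, Fosb, Fosl2, Junb, Maff, Mafk and, nearly flat in replicate 1, Jun, and all 3 slope up for Atf3.

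In limma with the replicate number as a block, 0 of 10 members passed an adjusted p of 0.05 in either direction. Over all tested genes 0.0% were called higher and 0.0186% lower, so the test called almost nothing anywhere. At an unadjusted p under 0.05 there were 7 members in limma, all higher, against 3.26% of tested genes in either direction. At that level edgeR with the block counted 5 members (3.0% of tested genes), DESeq2 with the block 5 (2.61%) and voom with the block 6 (3.15%). Limma without the block counted 0 members, where 0.818% of tested genes passed, and edgeR without the block 0, where 0.694% did, and none of these tools called a member after adjustment. Of the members 7 were higher in 3 of 3 pairs, where 11.8% of tested genes were, and 1 was lower in 3 of 3 pairs, where 11.0% of tested genes were. Over the 10 members the log2 fold changes had a median of 0.30, against 0.005 over all tested genes. The groups did not overlap for Fos, Maff and Mafk, each with irradiated libraries above (2.08% of tested genes), and for 0 members with irradiated libraries below (2.65%). Among 12039 genes averaging 100 normalized counts or more, which include all members, 11.9% were higher in 3 of 3 pairs. By the authors' deposited table, there were 5 members that had an unadjusted p under 0.05 (2.3% of its genes did) and 0 had an adjusted p under 0.05 (0.159% did). The members were chosen with earlier results of these data known, and some of them vary together across libraries. These counts and the median are therefore not independent evidence of a direction.

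**Figure D2:**
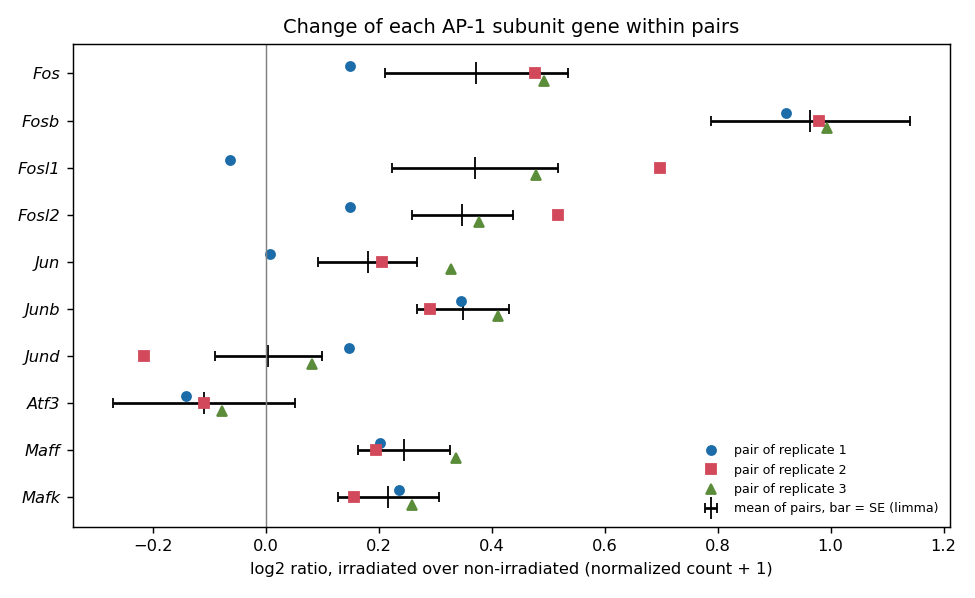
Log2 ratio of irradiated over non-irradiated (x axis, on normalized count + 1) for each member (y axis), with 1 point per pair of same-numbered libraries and a bar for the mean ± SE from limma. The 3 Fosb points lie together between 0.92 and 0.99, and those of Fosl1 spread from -0.06 to 0.70.

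Among the FOS genes, Fosb had the largest difference. Fosb encodes a FOS protein with a strong activation domain and is a classical immediate early gene. It had 126, 445 and 487 normalized counts in irradiated replicates 1, 2 and 3, against 66.0, 225 and 244 in the non-irradiated ones. Both libraries of replicate 1 were low, so the groups overlapped, yet the pairs gave almost the same ratio: 1.91-fold, 1.98-fold and 1.99-fold. The log2 fold change was 0.96 ± 0.18 (SE, limma with the block; adjusted p = 0.514), the 13th smallest p of all tested genes. In the authors' deposited table its adjusted p was 0.0989 at a log2 fold change of 0.97. Without the block the same difference had an SE of 0.67 (adjusted p = 0.9998 in limma), since the spread between replicate numbers then counts as error.

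Fos itself, the founding member and usually the fastest to rise and fade, was low at this time. It had 317, 394 and 370 normalized counts in irradiated libraries, against 286, 283 and 263 in non-irradiated ones. The groups did not overlap, with every irradiated library above every non-irradiated one. The log2 fold change was 0.37 ± 0.16 (SE, limma with the block; adjusted p = 0.995), and the pair of replicate 1 gave 1.11-fold, below the 1.39-fold and 1.41-fold of the other pairs.

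Fosl2, which encodes FRA-2, was the most abundant FOS mRNA. It had 12776, 14462 and 18944 normalized counts in irradiated libraries, against 11516, 10106 and 14575 in non-irradiated ones. Replicate 3 was the highest in each group, the groups overlapped, and the pairs gave 1.11-fold, 1.43-fold and 1.30-fold. Its log2 fold change was 0.35 ± 0.09 (SE, limma with the block; adjusted p = 0.995; in the authors' deposited table adjusted p = 0.189).

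Fosl1, which encodes FRA-1, the FOS protein tied to cell migration and invasion, depended on the replicate number. It had 714, 2109 and 2435 normalized counts in irradiated libraries, against 746, 1300 and 1747 in non-irradiated ones. It was higher with irradiation in replicates 2 and 3 (1.62-fold and 1.39-fold) and not in replicate 1 (0.957-fold), so its mean log2 fold change of 0.37 ± 0.15 (SE, limma with the block; adjusted p = 0.995) averages unlike pairs. In GENCODE M21, 1163 bases of its 2.033 kb of exon overlap Ccdc85b on the opposite strand, and the strand setting of the counting is not given in the sources used here. Ccdc85b had 2992, 4641 and 5265 normalized counts in irradiated libraries, against 2387, 4102 and 4551 in non-irradiated ones, and its share in the Fosl1 values was not tested.

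Of the JUN genes, Junb had the steadiest difference. JUNB is an immediate early JUN protein that activates transcription less strongly than JUN and can restrain it. It had 4004, 5282 and 5623 normalized counts in irradiated libraries, against 3151, 4316 and 4230 in non-irradiated ones. The groups overlapped because replicate 1 was low in both, and the pairs gave 1.27-fold, 1.22-fold and 1.33-fold. Its log2 fold change was 0.35 ± 0.08 (SE, limma with the block; adjusted p = 0.995; in the authors' deposited table adjusted p = 0.202).

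Jun, the main transactivating JUN, had 5363, 9604 and 10041 normalized counts in irradiated libraries, against 5334, 8325 and 8001 in non-irradiated ones. In replicate 1 the irradiated and non-irradiated libraries were almost equal (1.01-fold), against 1.15-fold and 1.26-fold in the pairs of replicates 2 and 3. Its log2 fold change was 0.18 ± 0.09 (SE, limma with the block; adjusted p = 0.995). Junos, an antisense gene that shares 232 exonic bases with Jun in GENCODE M21, stood lower in 3 of 3 pairs (33.9, 62.6 and 54.8 normalized counts in irradiated libraries, against 38.1, 94.4 and 90.6 in non-irradiated ones; adjusted p = 0.995 in limma with the block).

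Jund, which is made continuously in most cells and varies little with stimulation, had 6307, 4118 and 5810 normalized counts in irradiated libraries, against 5691, 4781 and 5488 in non-irradiated ones. It was higher in the pairs of replicates 1 and 3 (1.11-fold and 1.06-fold) and lower in that of replicate 2 (0.861-fold). Its log2 fold change of 0.005 ± 0.095 (SE, limma with the block; adjusted p = 0.998) changed sign with TMM scaling (-0.004), equal library totals (-0.021) and quantile normalization (-0.028). Other overlaps on the opposite strand were smaller or with genes of low level: 173 exonic bases of Junb with Prdx2, 877 of Jund with Gm11175, whose mean was 4.15 normalized counts, and 169 of Mafk with Tmem184a.

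Atf3, the stress-induced member, was the only one of the 10 that stood lower in every pair. It had 242, 359 and 202 normalized counts in irradiated libraries, against 266, 388 and 213 in non-irradiated ones. The difference within pairs (0.907-fold, 0.926-fold and 0.948-fold) was much smaller than the differences between replicate numbers. Its log2 fold change was -0.11 ± 0.16 (SE, limma with the block; adjusted p = 0.995).

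The small MAF genes were the least variable members. Maff had 5769, 5147 and 6501 normalized counts in irradiated libraries, against 5015, 4494 and 5146 in non-irradiated ones. Every irradiated library lay above every non-irradiated one, narrowly (5147 against 5146), and the log2 fold change was 0.25 ± 0.08 (SE, limma with the block; adjusted p = 0.995). Mafk had 2489, 2409 and 2393 normalized counts in irradiated libraries, against 2112, 2162 and 1999 in non-irradiated ones. The groups were clearly apart, the SDs were 51.4 and 83.5 (n = 3 each), and the log2 fold change was 0.22 ± 0.09 (SE, limma with the block; adjusted p = 0.995). Mafg, the remaining small MAF gene and no member here, had 4234, 4397 and 4580 normalized counts in irradiated libraries, against 3980, 3941 and 4001 in non-irradiated ones, with a log2 fold change of 0.15 ± 0.08 (SE, adjusted p = 0.995 in limma with the block).

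The replicate number set the level of several AP-1 genes more than irradiation did. In the F test of the replicate number in the same limma fit, 5 of 10 members differed at an adjusted p under 0.05, where 13.4% of tested genes did and 16.6% of those averaging 100 or more: Fosb (adjusted p = 0.00101), Fosl1 (0.00195), Jun (0.00317), Junb (0.0264) and Fosl2 (0.0327). For Fosb, Fosl1, Jun and Junb both libraries of replicate 1 lay below all 4 libraries of replicates 2 and 3. The lowest of those 4 exceeded the higher of the replicate 1 libraries 1.79-fold for Fosb, 1.74-fold for Fosl1, 1.49-fold for Jun and 1.06-fold for Junb. Fosl2 instead was highest in replicate 3. Atf3 was highest in replicate 2 and lowest in replicate 3 (adjusted p = 0.0503), and Jund (0.0705), Maff (0.215), Fos (0.846) and Mafk (0.874) did not pass either (limma F test). The count of 5 members became 0 in limma without trend, which called 64 of all tested genes, and 2 without replicate 1. It became 6 in edgeR, DESeq2 and voom, each with the block. Some cell type markers also set replicate 1 apart, and others replicate 3. The fibroblast sum was 2805134 normalized counts in irradiated and 2973664 in non-irradiated replicate 1, against at most 2211451 in the libraries of replicates 2 and 3, and 8 of the 12 fibroblast markers differed between replicate numbers in the limma F test. Among them Col3a1 was higher in replicate 1 (298103 in the irradiated and 326117 in the non-irradiated library, against 89796 to 114441 in the others) and Lum was lower (50.3 and 59.2, against 782 to 1119). The pericyte and muscle sum instead was highest in replicate 3 (60522 in the irradiated and 55435 in the non-irradiated library, against 29759 to 35927 in the others). Within that list Cnn1, Cspg4, Myh11 and Rgs5 were highest in replicate 3. Des instead was highest in replicate 1 (71.1 in the irradiated and 75.3 in the non-irradiated library, against 30.9 to 41.1). The epithelial sum was also highest in replicate 3 (1586 and 1263, against 550 to 685). The endothelial list was divided: Tek (378 in irradiated and 382 in non-irradiated replicate 1, against 48.6 to 72.4) and Kdr (184 and 185, against 42.0 to 92.0) were higher in replicate 1, whereas Cdh5 (10.9 and 7.61, against 14.4 to 33.5) and Emcn (0 and 0, against 11.5 to 39.6) were lower and Pecam1 overlapped. The part of these markers in the AP-1 levels was not tested.

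**Figure D3:**
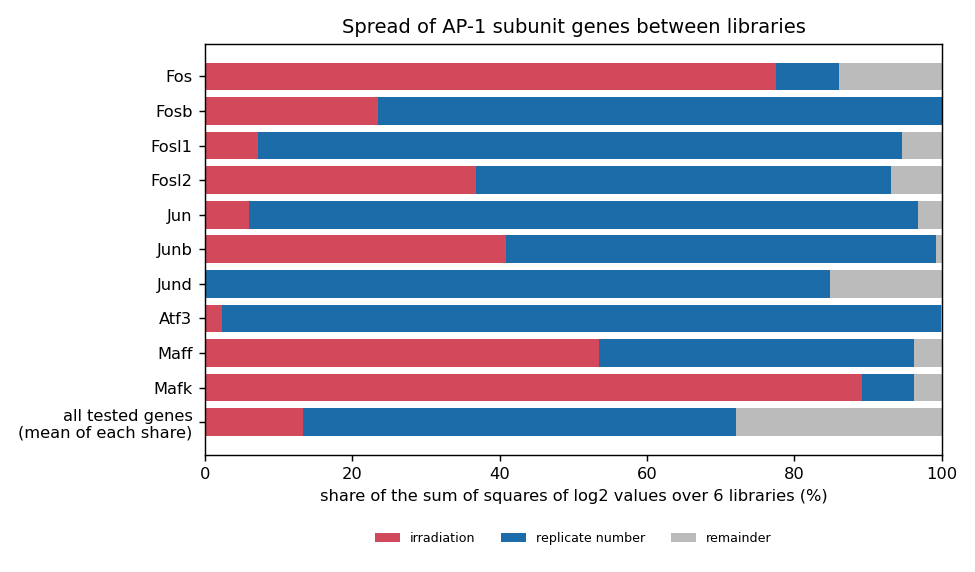
Share of the sum of squares of log2 values over the 6 libraries (x axis, %) that goes with irradiation, with the replicate number and with neither, for each member and as the mean over all tested genes (y axis). Irradiation takes the largest part for Mafk, Fos and Maff, and the replicate number for the other members. The replicate number has more degrees of freedom than irradiation, which favours its share.

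Irradiation took 89.2% of the sum of squares of log2 values over the 6 libraries for Mafk, 77.5% for Fos and 53.5% for Maff, against a mean of 13.3% over all tested genes. For Junb it took 40.8%, for Fosl2 36.8% and for Fosb 23.4%. For Atf3 the replicate number took 97.5%, for Jun 90.8% and for Fosl1 87.4%, against a mean of 58.8% over all tested genes. Only 0.0252% of the Fosb sum of squares was left to neither term, and 0.133% of that of Atf3. These are shares of totals in which the replicate number took 76.6% and 97.5%. Fosb had 78 to 506 reads per library and Atf3 193 to 382. Whether 3 pairs can agree this closely beyond luck at such read counts was not tested. Across the 6 libraries Fosb followed Junb (Pearson r = 0.98) and Jun (0.95), and Fosl1 followed Jun (0.97), whereas Fos went most closely with Mafk (0.82). These correlations over 6 libraries, which share the replicate numbers, are descriptions.

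Levels of different genes were compared per kilobase of exon, with exonic lengths from GENCODE M21. Per kilobase, Jund had the highest normalized count, with 3244 ± 688 in irradiated and 3190 ± 286 in non-irradiated libraries (SD, n = 3 each). Jun (2614 ± 810 and 2264 ± 515), Maff (2238 ± 261 and 1883 ± 133), Junb (2160 ± 371 and 1694 ± 282) and Fosl2 (1590 ± 329 and 1246 ± 236) came next in both groups, and neighbours in that order overlapped between libraries of a group, except Jund above Jun in non-irradiated libraries. Fosl1 (862 ± 450 and 622 ± 247) and Mafk (623 ± 13.2 and 536 ± 21.4) overlapped each other and lay below Fosl2. Fos (153 ± 16.8 and 118 ± 5.35) and Atf3 (124 ± 37.9 and 134 ± 41.5) overlapped, in opposite order in the 2 groups, and Fosb was lowest at 56.5 ± 31.6 and 28.6 ± 15.7. Thus the gene with the largest relative difference was also the scarcest subunit mRNA in both groups.

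**Figure D4:**
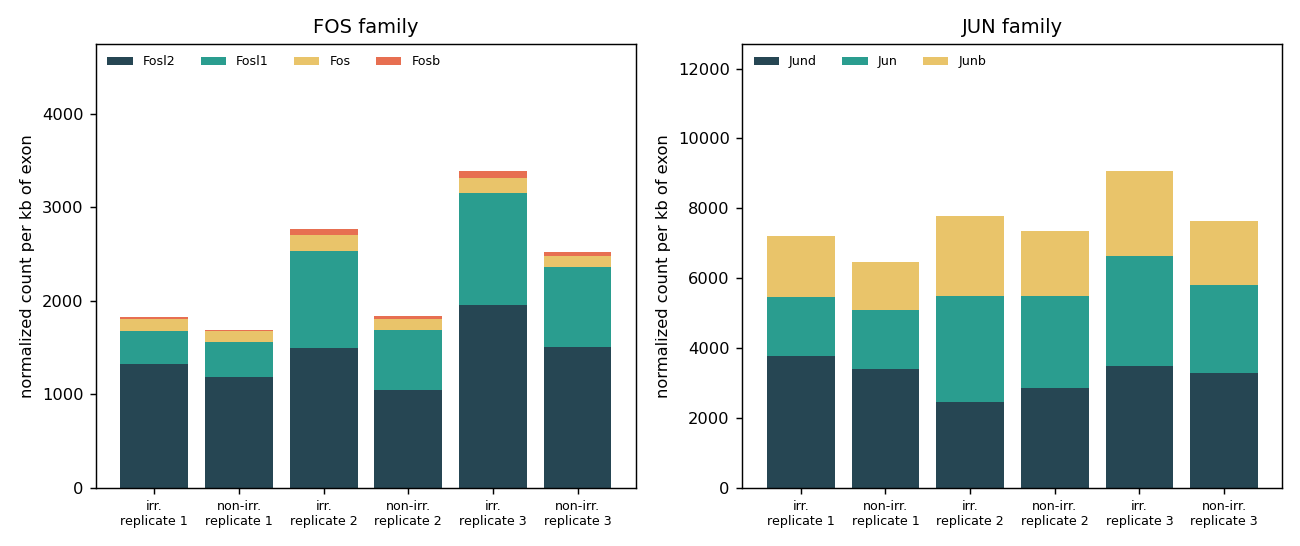
Normalized count per kb of exon (y axis) of the FOS genes at the left and the JUN genes at the right, stacked for each library (x axis), with each irradiated library left of its same-numbered partner. Fosl2 and Fosl1 make up most of every FOS bar, and Fosb is the thin top band, thicker in each irradiated bar than in its partner.

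Per kilobase, Fosl2 made up 61.3% ± 9.69 of the FOS family sum in irradiated and 62.3% ± 7.18 in non-irradiated libraries (SD, n = 3 each). Fosl1 made up 30.7% ± 9.96 and 30.2% ± 7.35, and Fos 6.03% ± 1.37 and 6.06% ± 1.44. The Fosb share was 1.10%, 2.57% and 2.30% in irradiated replicates 1, 2 and 3, against 0.626%, 1.96% and 1.55% in the non-irradiated ones, and was higher in each pair. Within the JUN family the Junb share was higher in each pair (24.2%, 29.5% and 26.9% in irradiated libraries, against 21.2%, 25.5% and 24.1% in non-irradiated ones), and the Jund share was lower in each pair (52.5%, 31.7% and 38.4%, against 52.9%, 39.0% and 43.1%). The JUN family sum exceeded the FOS family sum in every library. The ratio of FOS to JUN was 0.254, 0.356 and 0.374 in irradiated libraries, against 0.262, 0.250 and 0.329 in non-irradiated ones. The mean log2 difference of the ratio over pairs was 0.22 ± 0.16 (SEM, n = 3), with -0.05, 0.51 and 0.18 in the pairs of replicates 1, 2 and 3, a difference within the spread between pairs (0.35 without replicate 1 and 0.07 without replicate 2).

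Genes often cited as AP-1 targets were looked at as a list of 22, all tested. In limma with the block 0 passed in either direction, 10 had an unadjusted p under 0.05, all higher, against 1.93% of tested genes higher at that level. Of the 22, 12 were higher and 2 lower in 3 of 3 pairs, where 11.8% and 11.0% of tested genes were. The median log2 fold change was 0.29, against 0.005 over all tested genes. The list was written with earlier results of these data known, which showed Ptgs2, Hbegf and Plaur, so its count is not independent evidence of a direction. Ptgs2, the inducible cyclooxygenase, had 35618, 70008 and 65834 normalized counts in irradiated libraries, against 28645, 44701 and 39746 in non-irradiated ones (log2 fold change 0.56 ± 0.09 SE, adjusted p = 0.438 in limma with the block). Hbegf, an EGF receptor ligand, had 4501, 7921 and 8508 in irradiated libraries, against 3614, 5559 and 4913 in non-irradiated ones (0.54 ± 0.10, adjusted p = 0.584 in limma). Plaur, the urokinase receptor, had 4411, 8356 and 10124 in irradiated libraries, against 3473, 6723 and 7116 in non-irradiated ones (0.39 ± 0.08, adjusted p = 0.871 in limma). These 3 genes passed in the authors' deposited table, with adjusted p = 1.84e-05 for Ptgs2, 0.00163 for Hbegf and 0.0346 for Plaur, and in DESeq2 with the block. In all of them replicate 1 was the lowest in each group, as it was for Fosb, Fosl1, Jun and Junb.

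**Figure D5:**
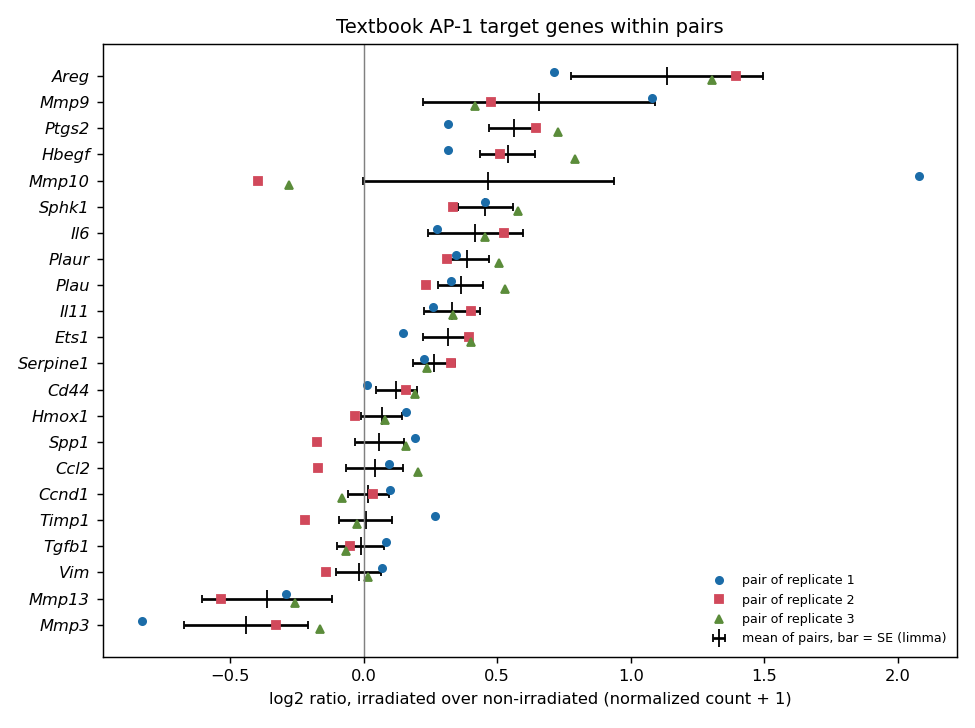
Log2 ratio of irradiated over non-irradiated (x axis, on normalized count + 1) of the 22 listed AP-1 target genes (y axis, ordered by their mean), with 1 point per pair of same-numbered libraries and a bar for the mean ± SE from limma. Areg, Ptgs2, Hbegf, Sphk1 and Plaur have all 3 points above 0, and Mmp3 and Mmp13 have all 3 below 0.

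Mmp3 and Mmp13, matrix metalloproteinase genes long studied as AP-1 targets in fibroblasts, lay on the other side. Mmp3, stromelysin-1, had 29.5, 347 and 151 normalized counts in irradiated libraries, against 53.3, 436 and 169 in non-irradiated ones, and Mmp13, a collagenase, had 16.4, 194 and 215, against 20.3, 281 and 256. Both stood lower in 3 of 3 pairs, as 11.0% of tested genes did. Neither passed (log2 fold changes -0.44 ± 0.23 and -0.36 ± 0.24, SE, adjusted p = 0.995 for each in limma with the block). Mmp10, stromelysin-2, had 17.5, 435 and 114 normalized counts in irradiated libraries, against 3.38, 573 and 138 in non-irradiated ones, and its pairs went in both directions. Mmp9, a gelatinase, was higher in 3 of 3 pairs (20.8, 34.2 and 77.0, against 9.31, 24.3 and 57.4; log2 fold change 0.66 ± 0.43 SE, adjusted p = 0.995 in limma with the block). The largest mean ratio of the list was that of Areg, which encodes the EGF receptor ligand amphiregulin, with 85.3, 65.6 and 58.7 normalized counts in irradiated libraries, against 51.6, 24.3 and 23.2 in non-irradiated ones. Its log2 fold change was 1.14 ± 0.36 (SE, adjusted p = 0.995 in limma with the block). The genes of this paragraph are named after their values were seen. Timp1, an inhibitor of these enzymes, and Ccnd1, cyclin D1, had log2 fold changes of 0.01 ± 0.10 and 0.02 ± 0.08 (SE, limma with the block).

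The genes around AP-1 showed smaller median differences than the members, against a median log2 fold change of 0.005 over all tested genes. In limma with the block 3.26% of tested genes had an unadjusted p under 0.05, and 1.93% had it and were higher. Of 26 upstream kinases and promoter-bound factors, all tested, 0 passed in limma with the block and 2 had an unadjusted p under 0.05, both higher, with a median log2 fold change of 0.08. Those were Mef2a (5467, 4636 and 5411 normalized counts in irradiated libraries, against 5009, 3490 and 4453 in non-irradiated ones) and Srf, serum response factor, which binds the Fos promoter (4484, 6983 and 7367, against 4029, 5995 and 5766). Their log2 fold changes were 0.27 ± 0.09 and 0.24 ± 0.08 (SE, adjusted p = 0.995 each in limma), and Mef2d followed at 0.18 ± 0.10. Of 19 other partners with a leucine zipper 15 were tested, with a median of 0.09, 0 passed in limma and 0 had an unadjusted p under 0.05. By smallest p these were led by Bach1, a repressor that pairs with small MAF proteins (0.25 ± 0.12, higher in the pairs of replicates 2 and 3), and Mafg. Of 11 genes for AP-1 protein and mRNA turnover 0 passed in limma and 1 had an unadjusted p under 0.05, with a median of 0.07. That was Zfp36l2, which binds AU-rich mRNA (15407, 18442 and 24279 normalized counts in irradiated libraries, against 15058, 15662 and 19665 in non-irradiated ones; 0.19 ± 0.08, adjusted p = 0.995 in limma). Fbxw7, a ubiquitin ligase subunit that targets JUN, stood at 0.15 ± 0.11, and Det1, which works in a ligase complex with COP1, at -0.20 ± 0.15 (log2 fold change ± SE). In 3 of 3 pairs 9 of the 26 upstream genes were higher and 1 was lower. For the 15 tested partners these counts were 3 and 1, and for the 11 turnover genes 1 and 0. Of all tested genes 11.8% were higher and 11.0% lower. These lists too were chosen with earlier results of these data known.

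The genes with the most similar pattern to each member were taken by Pearson's r over the 6 libraries among 11873 other named genes whose mean reached 50 normalized counts. Fosb went most closely with Epas1, Sgo2a and Urb1 (r = 0.993 to 0.996), and Fosl1 with Smg5, Coro1c and Eva1a (0.997 to 0.998). Fosl2 went with Fyttd1, Ppm1b and Ptpn11 (0.993 to 0.998), and Fos with Rpl28-ps3 and Vegfa (0.97 to 0.99). Jun went with Smad1, Elk3 and Tmcc1 (0.997 to 0.998), Junb with Slc35e4, Eif5 and Ippk (0.98 each), and Jund with Nck2, Dlg2 and Plekhf1 (0.992 to 0.997). Atf3 went with Anapc5, Pitrm1 and Leng9 (0.987 to 0.995), Maff with Irf2bp2, Arih2 and Marchf7 (0.97 to 0.98), and Mafk with Csnk2a1-ps3, Lrch1 and Cul5 (0.94 to 0.98). Elk3 is also in the list of upstream genes. These are descriptions over 6 libraries that share the replicate numbers.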

How the data were processed

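RNA libraries of 3 irradiated and 3 non-irradiated samples were compared; groups and replicate numbers were taken from the sample titles. The tools named in the submitters' processing notes are StringTie 2.1.7, HISAT2 2.2.1, FastQC 0.11.9 and Trimmomatic 0.39, and the build is GRCm39, with strand setting and annotation release not given in the sources used here. Values in the deposited table are a signal, normalized counts with DESeq2 columns per the file headers: each library's counts over a single size factor. Beside them stand the authors' deposited log2 fold changes with SE, a test score, p-values and adjusted p-values. Of 20745 rows, 80 with a repeated identifier were dropped. Whole reads came back for 100% of values within 0.001 reads, and edgeR 4.0.16 on them called 2 genes with the block.

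Genes were tested in R 4.3.3 by limma 3.58.1 on log2(normalized count + 1) (trend, 2-sided, Benjamini-Hochberg over 16141 genes, threshold 0.05) with the replicate number as a block, which leaves 2 residual degrees of freedom. Fold changes on this scale understate those of low genes. Deviations from group means correlated at 0.64, 0.47 and 0.57 between same-numbered libraries and at most 0.01 between others, over 13054 genes, and a DESeq2 1.42.0 refit with a replicate term gave the deposited log2 fold changes to within 0.0009, so the numbers pair the libraries. The fit was tested on simulated data. Members and gene lists were chosen with earlier results of these data known. Named genes are the members, of each list the 3 of smallest p, and per member the 3 genes of highest correlation; some that this rule names are not reported here, and others are named after their values were seen. Alternatives were other pseudocounts, filters, scalings and variance models, no block, edgeR, DESeq2 and voom, the authors' deposited table, and leaving out libraries. Exonic lengths (for 98.6% of genes) and overlaps came from GENCODE M21 and promoters from RefSeq, both on GRCm38, so no position of the authors' build is given.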

Additional observations from a re-analysis of the deposited data

How the results depend on the processing

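No member passed under any of the 24 alternatives; the lowest adjusted p was 0.0504, for Fosb in DESeq2 with the block. The counts of members higher (7) and lower (1) in every pair held under the other scalings. Other pseudocounts and filters cannot change the direction of a pair. Leaving out a library or pair cannot lower these counts (7 to 8 higher and 1 lower), so those settings do not test them. Jund had no stable direction: -0.0032 in edgeR with the block, -0.0037 with TMM, -0.021 with equal totals, -0.028 with quantile normalization, -0.067 and -0.034 without replicate 1 or 3 of both groups, and -0.117, -0.058 and -0.070 with no block and without irradiated replicate 1, irradiated replicate 3 or non-irradiated replicate 2. Atf3 turned to 0.072 and 0.12 with no block and without irradiated replicate 3 or non-irradiated replicate 2, and Jun to -0.024 without non-irradiated replicate 1. The block decides the precision: with no replicate block 0 members had an unadjusted p under 0.05 in limma, against 7 with it (0.818% against 3.26% of all tested genes), and 0 genes were called higher and 0 lower.

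The members' median log2 fold change ranged from 0.17 (without irradiated replicate 3) to 0.47 (without irradiated replicate 1) when libraries were left out, and the FOS to JUN difference from 0.07 to 0.35. Members differing between replicate numbers were 0 in limma without trend, 3 without a filter, and 2 to 5 without a pair (2 without replicate 1 and 3 without replicate 3). They were 6, against 5 in the main fit, in robust limma and in edgeR, DESeq2 and voom with the block. The count was also 6 with TMM scaling, equal library totals, a filter of 50 normalized counts and a pseudocount of 0.5. Genes called higher were 15 in DESeq2, 16 in the authors' deposited table, 1 in robust limma, 18 to 28 without a whole pair (28 without replicate 3) and 0 without a single library and the block. Genes called lower were 8 in DESeq2 and in the authors' deposited table, 0 in edgeR without the block, in limma without trend and without a filter, 14 to 36 without a whole pair (36 without replicate 3) and 0 or 1 without a single library and the block. Of the 4 pathway lists, 3 genes were called in DESeq2 and in the authors' deposited table (Ptgs2, Hbegf and Plaur), and 0 to 3 when libraries were left out: Ptgs2 and Hbegf without replicate 1, and these with Plau without replicate 2. The causes were not tested. Fosb, Fos and Atf3 rest on 78 to 506 reads per library and the other members on 653 or more; what this depth limits was not tested.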
